A study of Mus musculus with 2 samples.

Results

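The nuclear genes that encode subunits of the oxidative phosphorylation machinery were examined in cultured mouse primordial germ cells (PGCs), the embryonic precursors of sperm and eggs, with and without over-expression of the transcription factor gene Klf9. Genes were chosen by name alone, as the symbols that begin with Nduf followed by a, b, c, s or v and a digit, with Uqcr, with Cox followed by a digit from 4 to 8, or with Atp5, together with Sdha, Sdhb, Sdhc and Sdhd. This gave 81 of the 23320 gene symbols present in both libraries, of which 34 belonged by name to complex I, 4 to complex II, 8 to complex III, 18 to complex IV and 17 to complex V. The rule used no expression value, although earlier results of these data were known when the genes were chosen.

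Oxidative phosphorylation makes most of the ATP of respiring cells in the inner mitochondrial membrane. Complexes I and II take electrons from NADH and succinate, complex III passes them to cytochrome c, complex IV hands them to oxygen, and the protons pumped on the way drive the ATP synthase, complex V. Most of the subunits are encoded in the nucleus and a small set in mitochondrial DNA, and several complex IV subunits have separate genes for germ cells, muscle or lung.

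The data were RNA-seq libraries of E13.5 PGCs, 1 infected with a control lentivirus and 1 with a Klf9-OE lentivirus. PGCs were sorted by GFP from the genital ridges of both male and female embryos that carried the Oct4-deltaPE-GFP transgene, from MCH mothers and transgenic fathers kept on a C57BL/6J background. Cells of both groups were infected at MOI 5 and cultured for 1 day, and the vector placed the Klf9 coding region behind an EF promoter, so that Klf9 was driven well above its own level and in any infected cell. GEO's labels state that the culture medium contained bFGF, whereas the study describes culture without it for this experiment. Each condition was 1 library, so no difference below was tested across replicates.

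Expression is given as RPKM, the number of reads relative to transcript length and to all mapped reads, with the 95% interval that Cufflinks attached to it. The interval covers the estimate within a library and says nothing about the difference between cultures. Klf9 itself was at 2.27 RPKM (1.97 to 2.57) in control PGCs and 80.8 RPKM (77.0 to 84.5) in Klf9-OE PGCs, 35.6-fold higher, as the labels state. Several germ cell markers were abundant in both libraries, with Ddx4 at 299.9 and 292 RPKM and Dazl at 351 and 378 RPKM. Pou5f1 at 387 and 277 RPKM and Dppa3 at 294 and 179 RPKM were abundant too, but lower in Klf9-OE PGCs with intervals apart. Of 12 germ cell markers, 9 were lower in Klf9-OE PGCs with intervals that did not overlap and 1 was higher, and their summed RPKM was 1883 in control and 1564 in Klf9-OE PGCs. Of 14 measured markers of gonadal somatic cells, 8 were higher with intervals apart and 1 was lower, with sums of 59.2 and 84.0 RPKM, from the lowest, Star, listed at 0 in control PGCs, to Pecam1, which germ cells also express, at 16.8 and 24.2 RPKM. Beside these counts, 14.4% of all named genes above 0 were lower and 11.2% higher with intervals apart. For genes with a mean of at least 10 RPKM the shares were 23.3% and 14.2%. The 5 measured blood and macrophage markers summed to 5.14 and 5.33 RPKM. The part of these cell mixtures in the values below was not tested, and in bulk RNA fewer cells of a type and less RNA per cell cannot be told apart.

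The subunit genes were among the abundant transcripts of PGCs, and the level of nearly all of them was close between the libraries. Of the 81 genes, 79 were above 0 in at least 1 library, and 75 had a mean of at least 10 RPKM. The median over the 81 genes was 156 RPKM in control PGCs and 143 RPKM in Klf9-OE PGCs, whereas the 6747 genes with a mean of at least 10 RPKM had medians of 28.2 and 27.5 RPKM. The 81 genes summed to 14345 RPKM in control and 14022 RPKM in Klf9-OE PGCs, a ratio of 0.977, which was 2.69% and 2.75% of the RPKM of all named genes. The median log2 difference, Klf9-OE minus control on the log2(RPKM + 0.1) scale, was -0.03 over the 79 genes, with quartiles of -0.12 and 0.09, against -0.02 over all 18742 named genes above 0 and -0.03 over the 6747 more abundant genes. The size of the difference without its sign had a median of 0.10 for the 75 abundant subunit genes and 0.13 for the 6747 genes.

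**Figure D1:**
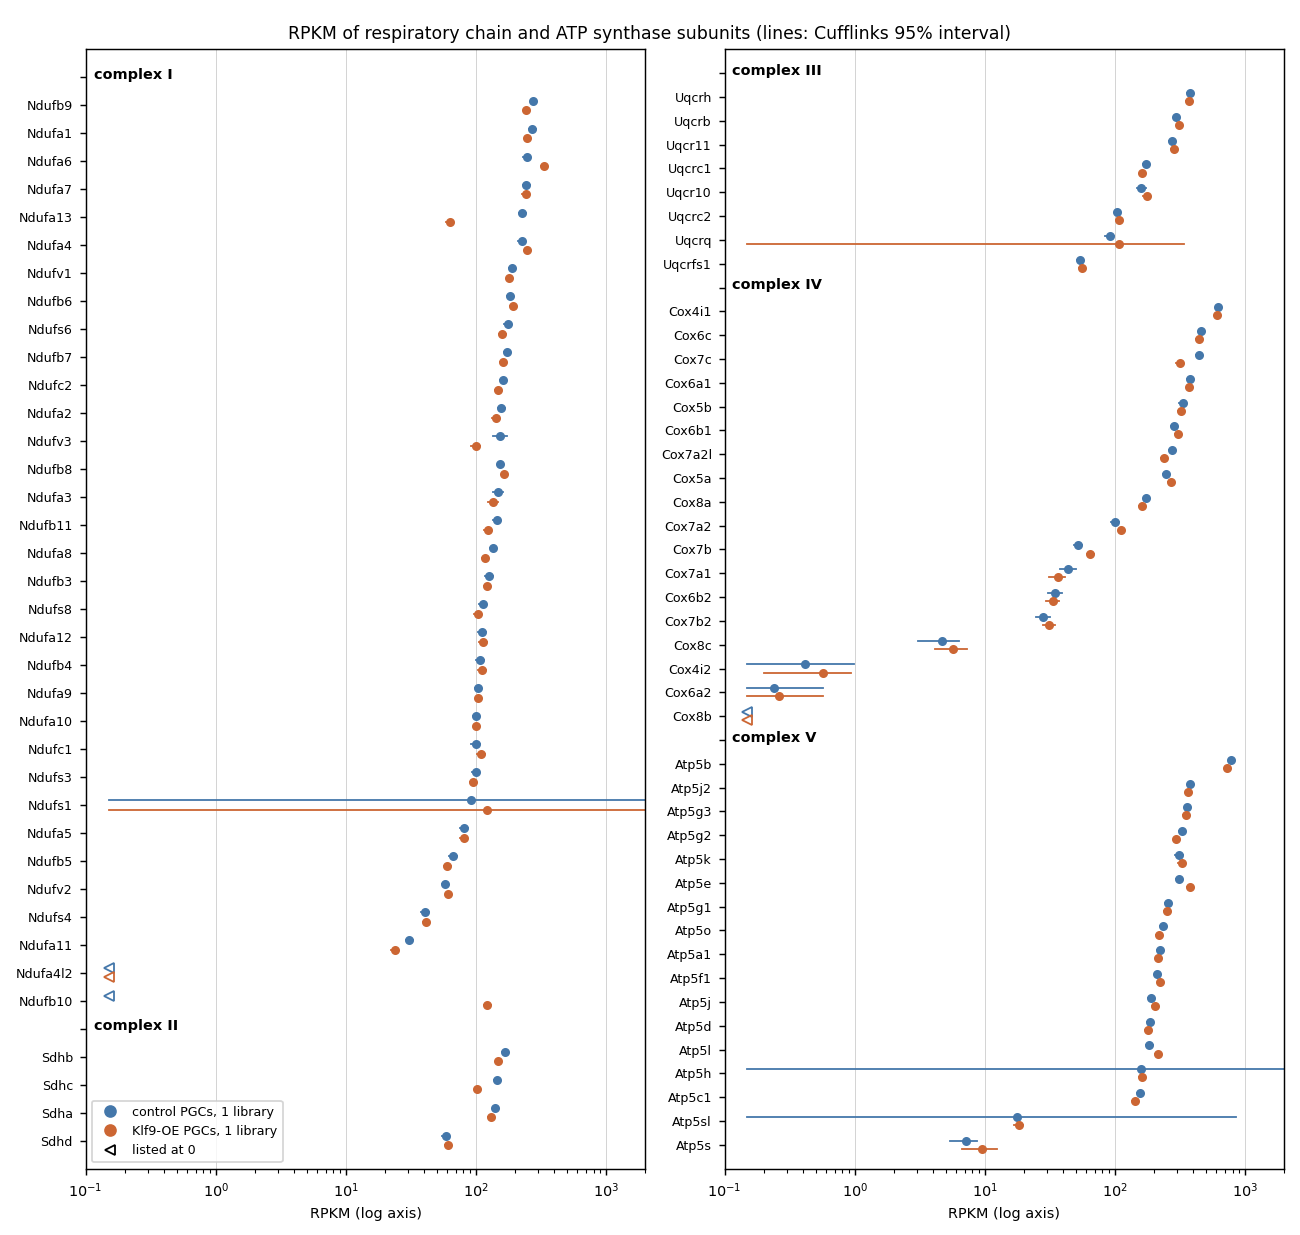
RPKM (log axis) of the subunit genes, of which 1 is not shown, in control PGCs (blue) and Klf9-OE PGCs (orange), grouped by complex and ordered by control level, with the Cufflinks 95% interval as a line and open triangles at the left for values listed at 0. Most pairs of points lie on top of each other, and Ndufa13 and Ndufb10 are the pairs that stand apart. Intervals that start at 0 are drawn from the position of the triangles, and those of Ndufs1 and Atp5h are cut at the edge of the plot.

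Few subunit genes passed a fold threshold. Ndufb10 was the 1 gene of 79 that exceeded its control level by 2-fold or more (1.27%, against 9.82% of all named genes), and Ndufa13 the 1 gene that was 2-fold or more below it (1.27%, against 9.43%). At a 1.2-fold threshold, 8 genes were higher (10.1%, against 25% of all named genes) and 7 were lower (8.86%, against 26.8%), which left 64 of 79 within 1.2-fold. Low expression widens ratios among all named genes, so the more abundant genes are the nearer comparison. Among the 75 subunit genes with a mean of at least 10 RPKM, 5 were 1.2-fold higher (6.67%, against 9.25% of the 6747 genes) and 7 were 1.2-fold lower (9.33%, against 15.9%).

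Intervals did not overlap for 6 genes that were higher in Klf9-OE PGCs (7.59% of 79, against 11.2% of all named genes) and for 14 that were lower (17.7%, against 14.4%). The 6 were Ndufb10, Ndufa6, Cox7b, Atp5e, Atp5l and Cox7a2. The 14 included Ndufa13, Ndufv3, Sdhc, Cox7c, Ndufa11, Ndufb11, Cox7a2l, Ndufa8, Sdhb, Ndufb9, Atp5g2, Uqcrc1 and Atp5b. All of these genes had a mean of at least 10 RPKM, where the same 6 made up 8% of 75 genes against 14.2% of the 6747 genes, and the 14 made up 18.7% against 23.3%. All 4 shares were below those of the more abundant genes. The split between higher and lower depended on how the libraries were scaled to each other. With both libraries brought to the same sum of RPKM, 14 subunit genes were higher and 8 lower, against 22.1% and 16.0% of the 6747 genes. With the median ratio of abundant genes set to 1, there were 10 and 13, against 17.9% and 19.3% of the 6747 genes. With equal upper quartiles there were 9 and 13, against 17.4% and 19.8%. The median log2 difference of the 79 genes was then 0.034, 0.0047 and 0.0010, so its sign turned under all 3 scalings, as did the signs for complexes IV and V, whereas complexes I and II stayed below 0 and complex III above it. The differences given below are those of the deposited values.

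**Figure D2:**
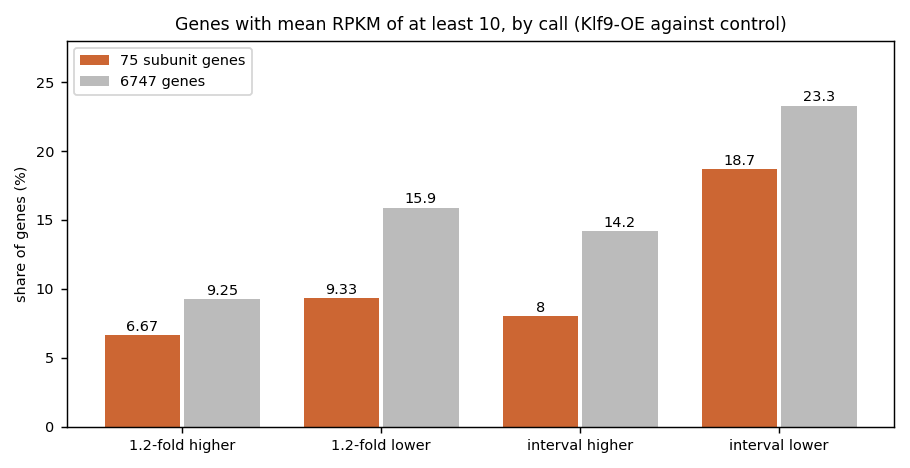
Share (%) of the 75 subunit genes with a mean of at least 10 RPKM (orange) and of the 6747 genes with that mean (grey) that were called higher or lower in Klf9-OE PGCs by a 1.2-fold threshold or by Cufflinks intervals that do not overlap. Each of the 4 orange bars is below its grey bar, with 18.7% against 23.3% for lower intervals as the tallest pair.

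Levels of the subunit genes relative to each other were alike in the libraries. Over the 74 genes with a mean of at least 10 RPKM and above 0 in both, Spearman's rho between the log2 levels was 0.95 and Pearson's r was 0.97, across genes that are not independent and that share their transcript models and mapping. Atp5b, the catalytic beta subunit of the ATP synthase, was highest at 772 RPKM (763 to 780) in control and 727 RPKM (719 to 734) in Klf9-OE PGCs, and its intervals overlapped with no others but the very wide ones of Ndufs1, Atp5h and Atp5sl. Cox4i1 was next with 618 RPKM (595 to 641) and 605 RPKM (583 to 627). Cox6c at 454 RPKM (439.5 to 469) and Cox7c at 441 RPKM (416 to 465) overlapped in control PGCs, as did Uqcrh at 379, Cox6a1 at 376 and Atp5j2 at 375 RPKM. In Klf9-OE PGCs Cox7c stood at 314 RPKM (296 to 332), below all 3 of these. The subunit transcripts are short, with a median annotated length of 730 nt and 55 of 81 under 1000 nt, against a median of 2572 nt for the more abundant genes with a length, and RPKM of short transcripts depends more on the fragment model. Among the subunit genes, length and log2 difference had a Spearman's rho of -0.11.

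Complex I, NADH dehydrogenase, held both genes that passed 2-fold. Its 34 genes summed to 4578 RPKM in control and 4439 RPKM in Klf9-OE PGCs, a ratio of 0.970 (1.01 with equal sums of all genes), and the median log2 difference of the 33 above 0 was -0.06. Its core subunits carry the flavin and iron-sulphur clusters and the quinone site. Of the 6 core subunit genes measured alone, 4 were within 1.2-fold. Ndufv1, which binds NADH, was at 188 and 179 RPKM, and its partner Ndufv2 at 57.4 and 61.3 RPKM. The iron-sulphur subunit genes Ndufs3 and Ndufs8 were at 99.2 and 95.1 RPKM and at 113 and 103 RPKM, with intervals that overlapped in each case. Ndufs1, the largest core subunit, was at 91.8 and 122 RPKM, but its intervals ran from 0 to 13846 and from 0 to 11395 RPKM, so the log2 difference of 0.41 was not resolved.

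Among the 9 accessory subunit genes of the peripheral arm, Ndufa6 and Ndufv3 lay apart in opposite directions and the other 7 were within 1.2-fold. Ndufa6, a LYR-motif protein that binds the acyl carrier protein, was at 244 RPKM (229.7 to 258) in control and 329.9 RPKM (313 to 347) in Klf9-OE PGCs, a log2 difference of 0.44. On the log2(RPKM + 0.1) scale this was the largest difference upward among subunit genes above 0 in both libraries. Ndufv3, which sits beside the NADH-binding subunits, was at 154 RPKM (136 to 172) and 99.6 RPKM (92.0 to 107), a log2 difference of -0.63. The summed RPKM of the 9 genes was 1309 in control and 1310 in Klf9-OE PGCs, within 1 RPKM of each other before rounding.

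The membrane arm genes were mostly slightly lower in Klf9-OE PGCs. Of 17 measured alone, 11 were lower in value and 6 higher, and the median log2 difference was -0.12. Of the 6747 more abundant genes, 3844 were lower in value and 2903 higher. With intervals apart, 5 of the 17 were lower and 1 was higher, beside 23.3% lower and 14.2% higher of the 6747 genes. The 1 higher gene was Ndufb10, whose control value is in doubt. Ndufa13, also known as GRIM-19, had the largest difference downward of all 81 genes, from 226 RPKM (212 to 240.2) in control to 62.8 RPKM (59.1 to 66.6) in Klf9-OE PGCs, a log2 difference of -1.85. Ndufa13 lies at chr8:69894149-69902558 (mm10), and its locus was assembled anew by Cufflinks in each library, with a start at base 69894182 in Klf9-OE PGCs. Ndufb10 was listed at exactly 0 in control PGCs and at 122 RPKM (114 to 129) in Klf9-OE PGCs. It lies at chr17:24722067-24724388 (mm10), next to the ribosomal protein gene Rps2, which was at 2124 and 1992 RPKM. The control value came from an assembled locus and the Klf9-OE value from the reference locus, and an exact 0 for a gene that respiring cells use can be a failed estimate, so no fold is given. Ndufa11, at 30.7 RPKM (28.9 to 32.6) and 23.7 RPKM (22.2 to 25.1), was the lowest complex I gene above 0 in control PGCs. Ndufb9 was the highest at 272 RPKM (263 to 282) and 244 RPKM (236 to 252), and it, Ndufb11 and Ndufa8 were between 0.854 and 0.896 times the control level.

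**Figure D3:**
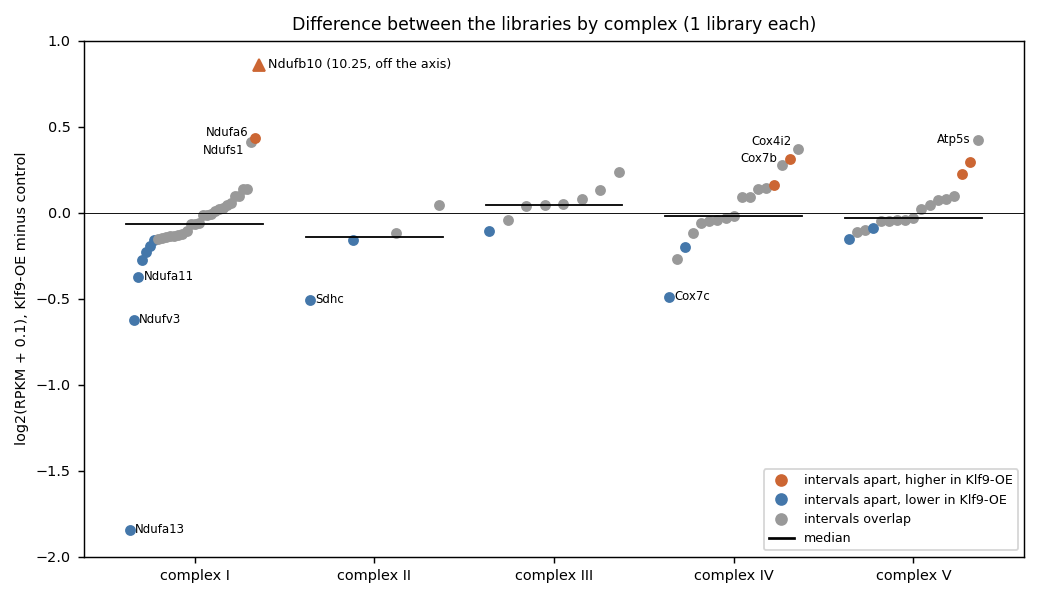
Log2 difference in RPKM + 0.1, Klf9-OE minus control, for the 79 subunit genes above 0, by complex and in order of value within each. Orange and blue points have Cufflinks intervals apart, grey points have intervals that overlap, and black lines are medians. Most points lie close to 0, Ndufa13 is at -1.85, and Ndufb10, listed at 0 in control PGCs, is drawn as a triangle because its value of 10.25 is off the axis and depends on the pseudocount.

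Without Ndufb10 and Ndufa13, whose values coincide with different locus models, no subunit gene reached 2-fold in either direction, and 13 were lower and 5 higher with intervals apart. These were 17.8% and 6.85% of the 73 remaining genes with a mean of at least 10 RPKM. The shares among all 6747 genes with that mean were 23.3% and 14.2%. The sums of complex I without them were 4352 and 4254 RPKM, a ratio of 0.977. Ndufs7, a core subunit, could not be compared, because it stood alone in control PGCs at 178 RPKM (168 to 188) and was joined with its neighbour Dazap1 in Klf9-OE PGCs at 250.2 RPKM (239.7 to 261). The control values of Ndufs7 and Dazap1 summed to 249.6 RPKM. Ndufb2 and Ndufs5 were joined with neighbours in both libraries and were not counted. The joint locus of Ndufb2 and Adck2 was at 102 RPKM (93.7 to 111) and 101 RPKM (81.9 to 120.3). The joint locus of Ndufs5 and BC002163 was at 174 RPKM (162 to 185) and 141 RPKM (132 to 150.0), lower in Klf9-OE PGCs with intervals apart.

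Complex II, succinate dehydrogenase, joins the tricarboxylic acid cycle to the respiratory chain and has no subunit encoded in mitochondrial DNA. Its 4 genes summed to 509 RPKM in control and 439 RPKM in Klf9-OE PGCs, a ratio of 0.863, the lowest of the 5 complexes (0.901 with equal sums of all genes). Much of this difference was Sdhc, a membrane anchor of the enzyme, at 145 RPKM (136 to 153) and 102 RPKM (98.3 to 105), a log2 difference of -0.51. Sdhb, the iron-sulphur subunit, was at 165 RPKM (157 to 174) and 148 RPKM (143 to 152), also with intervals apart. Sdha, the flavoprotein, was at 140.2 RPKM (134 to 147) and 129 RPKM (123 to 135), and the other anchor Sdhd at 58.5 RPKM (54.8 to 62.2) and 60.4 RPKM (57.8 to 62.9), with intervals that overlapped. The median log2 difference of the 4 genes was -0.14. The loci of Sdhc and Sdhb were assembled in control PGCs and kept the reference identifier in Klf9-OE PGCs, whereas Sdhd kept it in both. Among all genes with a mean of at least 10 RPKM that were assembled in control alone, 30.8% were lower and 7.39% higher with intervals apart. The part of the transcript models in the differences of Sdhc and Sdhb was not tested.

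Complex III, the cytochrome bc1 complex, passes electrons from quinol to cytochrome c. Its 8 genes were all within 1.2-fold, their sums were 1529 RPKM in control and 1569 RPKM in Klf9-OE PGCs, and their median log2 difference was 0.05. Uqcrc1, a core protein, was the 1 gene with intervals apart, at 173 RPKM (165 to 181) and 160.3 RPKM (157 to 164). The hinge protein gene Uqcrh was highest at 379 RPKM (359 to 399) and 368 RPKM (349 to 387). Uqcrfs1, which encodes the Rieske iron-sulphur protein, was lowest at 54.1 RPKM (51.4 to 56.8) and 55.6 RPKM (53.1 to 58.0). Uqcrq was at 91.1 and 108 RPKM, with a Klf9-OE interval of 0 to 338 RPKM.

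Complex IV, cytochrome c oxidase, summed to 3460 RPKM in control and 3304 RPKM in Klf9-OE PGCs, a ratio of 0.955, with a median log2 difference of -0.02 over the 17 genes above 0. Of the 10 ubiquitous subunit genes, 8 were within 1.2-fold. Cox7c was lower, from 441 RPKM (416 to 465) to 314 RPKM (296 to 332), a log2 difference of -0.49. Cox7b was higher, from 52.0 RPKM (48.3 to 55.8) to 64.6 RPKM (60.5 to 68.7), a log2 difference of 0.31. Cox7a2 was higher by less, from 99.98 RPKM (93.3 to 107) to 112 RPKM (107 to 117), and its intervals were apart by a small margin before rounding. The regulatory subunit gene Cox4i1 had overlapping intervals, as did Cox5a, Cox5b, Cox6a1, Cox6b1, Cox6c and Cox8a. Levels of the 10 genes spanned 11.9-fold in control PGCs, from Cox7b to Cox4i1.

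The isoform pairs of complex IV showed ubiquitous forms above germ cell and muscle forms in both libraries. Cox6b2, Cox7b2 and Cox8c are isoforms known from testis. Cox7b2 was at 28.2 RPKM (24.7 to 31.7) and 31.1 RPKM (27.8 to 34.4), below Cox7b in each library, and the testis isoform Cox6b2 was at 34.7 RPKM (30.5 to 38.8) and 33.2 RPKM (29.4 to 37.0) beside Cox6b1 at 284 and 302 RPKM. Cox8c was at 4.67 RPKM (3.08 to 6.27) and 5.69 RPKM (4.11 to 7.27) beside Cox8a at 174 and 161 RPKM. All 3 were thus present at E13.5, and none had intervals apart between control and Klf9-OE PGCs.

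The muscle isoforms divided. Cox7a1, known from heart and skeletal muscle, was at 43.9 RPKM (37.5 to 50.2) and 36.3 RPKM (31.1 to 41.5), with overlapping intervals. Cox6a2 was at 0.239 and 0.262 RPKM with both intervals reaching 0, and Cox8b was listed at 0 in both libraries. Cox4i2, the isoform known from lung and low oxygen, was at 0.417 RPKM (0 to 0.981) and 0.569 RPKM (0.202 to 0.937), a value too low for its ratio of 1.37 to be read. Cox7a2l, also called SCAF1 for its part in joining complexes III and IV, was at 273 RPKM (259.9 to 286) and 238 RPKM (226 to 249), with intervals apart. Ndufa4, named for complex I and now regarded as part of complex IV, was at 224 RPKM (210.2 to 239) and 247 RPKM (237 to 257), and its hypoxia-induced relative Ndufa4l2 was listed at 0 in both.

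**Figure D4:**
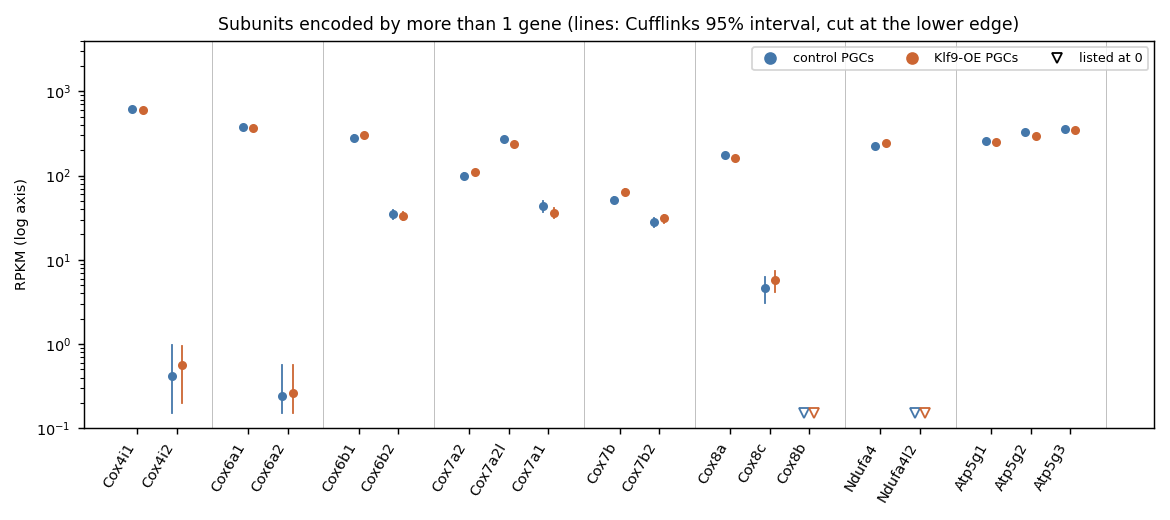
RPKM (log axis) of subunits encoded by more than 1 gene in control PGCs (blue) and Klf9-OE PGCs (orange), 1 library each, with Cufflinks 95% intervals as lines, cut where they reach 0, and open triangles for genes listed at 0. Ubiquitous forms such as Cox4i1 and Cox6a1 lie above their tissue forms in both libraries, whereas the 3 genes of the c-ring, Atp5g1, Atp5g2 and Atp5g3, lie close together.

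Complex V, the ATP synthase, had close summed expression in the libraries, 4269 RPKM in control and 4271 RPKM in Klf9-OE PGCs, with a median log2 difference of -0.03. Of its 17 genes, 15 were within 1.2-fold. The F1 head and stalks make ATP as the central stalk turns. Atp5b was the gene there with intervals apart downward, by a log2 difference of -0.09, and Atp5e, the epsilon subunit of the stalk, was the gene apart upward, at 309 RPKM (295 to 324) in control and 379 RPKM (358 to 400.2) in Klf9-OE PGCs, a log2 difference of 0.29. The 3 genes for the identical c-ring protein differ in their targeting sequences. Atp5g1 was at 254 and 249.6 RPKM, Atp5g2 at 329.7 RPKM (312 to 347) and 296 RPKM (287 to 305), and Atp5g3 at 359 and 348 RPKM. Atp5g2 was the c-ring gene with intervals apart. Among the small membrane subunits, Atp5l was at 184 RPKM (172 to 196) and 215 RPKM (203 to 227) with intervals apart, and Atp5j2 and Atp5k had overlapping intervals.

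Atp5s and Atp5sl were counted under complex V by name alone and are not constitutive subunits. Atp5s, the coupling factor B gene and the lowest of the genes so named, was at 7.10 RPKM (5.42 to 8.77) and 9.56 RPKM (6.68 to 12.4). The log2 difference of 0.42 lay within overlapping intervals. Atp5h at 159 and 161 RPKM had a control interval of 0 to 13913 RPKM, and Atp5sl at 17.7 and 18.2 RPKM one of 0 to 855 RPKM.

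The calls were also counted by how Cufflinks had named the locus. A locus either kept its reference identifier or was assembled anew in a library, which can alter the transcript models behind its RPKM. Of the 81 genes, 23 kept the reference identifier in both libraries, 32 were assembled in both, 22 were assembled in control alone and 4 in Klf9-OE alone. Among the 23, no gene was higher with intervals apart, 4 were lower (17.4%), and the median log2 difference was 0.04. Among the 22 assembled in control alone, 2 were higher (9.09%) and 6 lower (27.3%), with a median of -0.06. Among all genes with a mean of at least 10 RPKM, the class with reference identifiers in both had 13.3% higher, 21.2% lower and a median of -0.03, and the class assembled in control alone had 7.39%, 30.8% and -0.07. The 23 and 22 subunit genes were not held to that mean, so these sets are not like for like. Of the 23, Ndufa4l2 and Cox8b were listed at 0 in both libraries. Cox6a2 and Cox8c of the 23 and Cox4i2 of the 22 had means below 10 RPKM. The 4 lower genes all had that mean, so their share of 17.4% would be larger among genes held to it. The median of the 23 would be lower. Of the 8 genes with pseudogenes named after them in the GENCODE M21 annotation, Atp5c1, Atp5k, Atp5l, Cox6c, Ndufa11, Ndufb4, Ndufs6 and Uqcrh, reads can be shared with the copies, so their values are uncertain. Pseudogenes were sought by name alone. Copies under other names were not looked for, so shared reads are possible for other subunit genes too.

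The promoter regions of the subunit genes are known for sites of nuclear respiratory factor 1 (NRF1) and of ETS factors such as GABP, and KLF9 binds GC-rich boxes. RefSeq windows (GRCm38.p6) of 250 bases before to 50 after the start were matched by symbol for 66 of the 81 genes, in 72 windows. The unmatched genes included Atp5a1, Cox4i1, Cox4i2, Cox6a2, Cox6c, Cox8c, Ndufa2, Ndufa4l2, Ndufb9, Ndufs1, Sdhc, Uqcrb, Uqcrc2 and Uqcrq. Below, for each complex, is the 250 bases before the start of the gene with the highest control RPKM among those with an NRF1 or ETS motif there, shown because these motifs were more frequent in the windows of the subunit genes than in all windows. Capitals mark GCGCATGC (NRF1) or CCGGAAG (ETS) on either strand, and Uqcrh is a gene whose reads can be shared with a pseudogene.
Ndufa6, chr15:82354292-82354541, minus strand: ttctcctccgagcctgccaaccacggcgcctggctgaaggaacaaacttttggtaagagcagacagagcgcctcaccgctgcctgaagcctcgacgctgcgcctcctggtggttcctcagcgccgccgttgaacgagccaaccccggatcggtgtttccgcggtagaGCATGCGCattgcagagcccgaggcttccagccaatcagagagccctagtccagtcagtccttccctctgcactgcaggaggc
Sdhb, chr4:140961021-140961270, plus strand: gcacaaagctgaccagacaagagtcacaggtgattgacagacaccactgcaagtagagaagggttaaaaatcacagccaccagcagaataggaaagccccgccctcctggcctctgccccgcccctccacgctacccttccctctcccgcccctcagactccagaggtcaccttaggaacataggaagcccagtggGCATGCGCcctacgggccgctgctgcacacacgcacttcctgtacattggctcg
Uqcrh, chr4:116075071-116075320, minus strand: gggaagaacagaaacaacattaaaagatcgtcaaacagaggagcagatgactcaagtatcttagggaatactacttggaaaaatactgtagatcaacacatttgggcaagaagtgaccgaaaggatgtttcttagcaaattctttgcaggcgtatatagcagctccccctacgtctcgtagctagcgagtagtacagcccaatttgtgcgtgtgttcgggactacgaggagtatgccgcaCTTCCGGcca
Cox6a1, chr5:115348959-115349208, minus strand: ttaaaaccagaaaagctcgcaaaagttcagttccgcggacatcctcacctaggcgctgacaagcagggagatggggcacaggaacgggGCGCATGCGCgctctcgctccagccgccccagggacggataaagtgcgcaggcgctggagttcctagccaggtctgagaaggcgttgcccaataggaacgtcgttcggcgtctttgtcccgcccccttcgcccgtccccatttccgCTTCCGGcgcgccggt
Atp5g2, chr15:102671048-102671297, minus strand: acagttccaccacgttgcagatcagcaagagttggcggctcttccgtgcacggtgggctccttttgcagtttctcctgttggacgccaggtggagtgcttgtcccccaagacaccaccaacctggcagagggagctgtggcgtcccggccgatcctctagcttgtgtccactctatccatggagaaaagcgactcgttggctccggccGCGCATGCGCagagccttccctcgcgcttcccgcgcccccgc

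The first motif bases lay 83 bases before the start in Ndufa6, 54 in Sdhb and 10 in Uqcrh. Cox6a1 and Atp5g2 each held a palindromic run of overlapping NRF1 matches on both strands, and Cox6a1 also an ETS match 16 bases before the start. Searched on both strands over the 300 bases, GCGCATGC was found in 13.9% of the 72 windows and 2.71% of all 32851 windows, and in 10 of the 66 genes. CCGGAAG was found in 22.2% against 8.86%, in 16 genes, and 21 genes held 1 or both. ATGGCGGC, which is bound by YY1, was found in 11.1% against 2.24%, in 6 genes. GGGCGG, a GC box, was found in 40.3% against 35.7%, in 28 genes, and the windows had a median GC content of 57.3% against 52.7%. A match of letters is a description and not a binding site.

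Genes with and without each motif had close median differences between the libraries. The median log2 difference was -0.06 for the 10 genes with the NRF1 motif and -0.04 for 53 without it, and 0.03 against -0.05 for the ETS motif. For the YY1 motif it was -0.01 against -0.04, and for the GC box 0.01 in 27 genes against -0.05 in 36. In each case the range of the genes with the motif lay across 0. Ndufa6, with the NRF1 motif shown above, was higher at a ratio of 1.35, while Sdhb and Atp5g2, with the same motif, were lower at 0.895 and 0.898.

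Of the subunits outside the name rule, Ndufab1 stood apart. Ndufab1, the mitochondrial acyl carrier protein that complex I holds as a subunit, was at 247 RPKM (221 to 272) in control and 77.5 RPKM (72.4 to 82.6) in Klf9-OE PGCs. Like that of Ndufa13, its locus was assembled anew in each library, and the part of the transcript models in its difference was not tested. Of the 6 such genes measured of 7 listed, Ndufab1 and Atpif1, the inhibitor of the ATP synthase, were lower with intervals apart, Cycs was higher, and 3 overlapped. Atpif1 was at 52.7 RPKM (49.5 to 55.9) and 44.5 RPKM (41.8 to 47.3). Cycs, somatic cytochrome c, was at 39.9 RPKM (37.8 to 42.1) and 44.6 RPKM (43.2 to 46.0). The subunits encoded in mitochondrial DNA had no gene symbol in the files. An unnamed locus that spanned most of the mitochondrial chromosome was at 823 RPKM (819.9 to 825) in control and 612 RPKM (587 to 638) in Klf9-OE PGCs, a ratio of 0.744. The nuclear subunit genes had a summed ratio of 0.977. The mitochondrial locus was also assembled anew in each library, at bases 25 to 16298 in control and 16 to 16274 in Klf9-OE PGCs. The part of the transcript models in its ratio was not tested.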

How the data were processed

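RNA-seq was made by the study from 500 ng of total RNA of 1 control and 1 Klf9-OE PGC culture (TruSeq kit, 51-mer single-end reads). The authors used TopHat2 with Bowtie for mapping (mm10), estimated expression with Cufflinks, tools whose versions are not given in the sources used here, and deposited FPKM per locus with 95% interval bounds. For single-end reads FPKM equals RPKM. Cuffdiff results were not used here. The files hold no read totals. From the intervals, the Klf9-OE library was 1.22 times as deep as the control, and the 40 subunit genes whose implied reads matched the RPKM ratio within 10% rested on a median of 1242 control reads. Locus starts in the files count from 0 and were raised by 1.

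RPKM was added up over loci that share a symbol, and names that join genes were skipped. Folds had no pseudocount, and log2 differences used 0.1. Calculations used Python 3.11.15, pandas 2.3.3 and numpy 2.4.6, were tested on simulated data, and gave no p-value. Intervals do not cover differences between cultures.

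Genes were named by rule: the highest and lowest of each complex, the 6 largest rises and falls in log2(RPKM + 1), every gene at 2-fold with at least 1 RPKM, core, complex II and c-ring genes, isoform pairs, and companion genes at 1.5-fold with at least 1 RPKM. Other genes were named after their values were seen. The members and lists were chosen with earlier results of these data known. Alternatives covered pseudocounts, a filter on low values, 3 scalings, the rows of a symbol, interval width and the set of members. The values of 1 subunit gene are not reported here.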

Additional observations from a re-analysis of the deposited data

Results flagged for a closer look

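Loci without a gene name, which entered none of the comparisons, lay within the span of 5 subunit genes in Klf9-OE PGCs and within none in control PGCs. The largest value was 32.0 RPKM (19.4 to 44.6) for a locus of 192 nt inside Atp5s, a gene at 9.56 RPKM itself. The locus of 167 nt inside Ndufa13 was at 24.6 RPKM (10.4 to 38.9), and that of 171 nt inside Sdhd at 18.8 RPKM (6.66 to 30.9). Ndufv2 held 2, at 7.68 RPKM (2.72 to 12.6) and 4.34 RPKM (1.54 to 7.15), and Atp5sl 1, at 3.28 RPKM (1.73 to 4.83). The Klf9-OE library held 15127 unnamed loci in all and the control 6482, and whether this difference bears on the 6 loci was not tested.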

How the results depend on the processing

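No paired analysis was possible because each group has 1 library, and no replicate could be left out. Pseudocounts, the filter on low values, the largest locus of a symbol, wider Klf9-OE intervals and leaving out tissue isoforms moved no count by over 1.5 times. They moved no sum beyond the combined intervals of its genes. For a median the limit was the typical interval width of a single gene, 0.0953 to 0.117 in log2, which is not a spread of the median. No median passed it under these settings, but it is wider than the shift of every scaling, so this says little about how stable the medians are. Pseudocounts and gene sets turned the sign of no named gene. Of 41 named genes, 2 turned sign with equal upper quartiles (Atp5g1, Cox6a1), 3 with the median ratio (also Cox4i1) and 6 with equal sums (also Atp5g3, Ndufs3, Uqcrh), all with overlapping intervals in the deposited values, and Atp5b moved under all 3 scalings, to -0.06, -0.02 and -0.05. Equal upper quartiles moved the ratio of sums to 0.989 for complex I, 1.02 for complex V and 0.997 for all genes. Equal sums moved it to 1.01, 0.901, 1.07, 0.997 and 1.04 for complexes I to V and 1.02 for all, and the genes with intervals apart to 14 higher and 8 lower. The median ratio of abundant genes moved the higher genes to 10 and the ratio of sums to 0.992 for complex I, 0.977 for complex IV, 1.02 for complex V and 1.00 for all. The scalings shift every log2 difference by 0.03, 0.06 and 0.03. Sets chosen after seeing the data were fewer genes by construction: without Ndufb10 and Ndufa13, 0 were 2-fold higher and 0 lower. With the reference identifier in both libraries, 0 and 0 were at 2-fold, 1 and 1 at 1.2-fold, and 0 and 4 had intervals apart. The value for complex II, 0.044, was then that of Sdhd alone. The median for complex IV, 0.091, was the value of Cox6a2, at 0.239 and 0.262 RPKM with both intervals reaching 0. Neither describes its complex. Differences of a few percent in sums are thus within the choice of scaling, and with 1 library per condition none can be set against the spread between cultures.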

Other observations

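Assembly factors of the respiratory complexes, which build the subunits together, were also mostly alike between the libraries. For reference, 11.2% of all named genes were higher with intervals apart and 14.4% were lower (14.2% and 23.3% of those with a mean of at least 10 RPKM). Of 12 measured complex I factors 2 were higher and 3 lower in Klf9-OE PGCs with intervals apart, and of 12 factors of complexes II, III and V 1 and 1. Of 17 complex IV factors above 0 these were 2 and 0. Cox20 and Surf1 were listed at 0 in both libraries, where their loci were assembled anew. Ndufaf5, which hydroxylates a core subunit of complex I, was at 31.1 RPKM (28.1 to 34.0) in control and 9.10 RPKM (8.37 to 9.83) in Klf9-OE PGCs. Its locus was assembled anew in each library, and the part of the transcript models in its difference was not tested. Sdhaf1, which matures the iron-sulphur subunit of complex II, was at 5.19 RPKM (4.19 to 6.18) and 8.11 RPKM (6.98 to 9.25). Bcs1l, the translocase of the Rieske protein, was at 11.4 RPKM and listed at 0, and Ndufaf3 was listed at 0 and at 2.35 RPKM. The copper chaperone gene Cox17 was at 101 RPKM (92.4 to 111) and 129 RPKM (119 to 139). Sco1, of the complex IV factors, was at 3.57 and 8.34 RPKM, but its Klf9-OE interval ran from 0 to 34.1 RPKM.

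Of 15 measured regulators of respiratory genes, 4 were lower with intervals apart and 1 was higher. The shares were 14.4% and 11.2% for all named genes, and 23.3% and 14.2% for those with a mean of at least 10 RPKM. Esrra, an orphan nuclear receptor that drives mitochondrial genes, was at 10.9 RPKM (9.93 to 11.9) and 7.08 RPKM (6.37 to 7.79), and its coactivator Ppargc1b at 1.89 RPKM (1.61 to 2.18) and 1.22 RPKM (1.02 to 1.43). Nrf1 at 20.1 and 18.6 RPKM and Gabpa at 22.5 and 23.1 RPKM had overlapping intervals. Of the 17 genes of the tricarboxylic acid cycle and pyruvate dehydrogenase, 16 were within 1.2-fold and their median log2 difference was 0.04.

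Among 8 carriers and porins 4 were higher with intervals apart and 0 were lower, with a median log2 difference of 0.14. For genes with a mean of at least 10 RPKM the shares were 14.2% higher and 23.3% lower. Slc25a5, an ADP/ATP carrier, was at 75.4 RPKM (72.2 to 78.5) and 94.4 RPKM (89.3 to 99.4), and Ucp2, an uncoupling protein family member, at 13.3 RPKM (12.1 to 14.5) and 19.5 RPKM (18.2 to 20.8). Pdk1, which inhibits pyruvate dehydrogenase, was at 6.82 RPKM (6.28 to 7.36) and 15.0 RPKM (14.1 to 16.0), the 1 of 10 genes of hypoxia-responsive metabolism at 2-fold. Epas1 was at 3.88 RPKM (3.50 to 4.26) and 6.43 RPKM (6.05 to 6.82), while Hif1a, Bnip3 and Slc2a1 of that list were lower with intervals apart.

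Testis forms of 2 other respiratory proteins were abundant in both libraries. Cyct, testis cytochrome c, was at 89.1 RPKM (82.6 to 95.7) and 96.4 RPKM (90.4 to 102), above Cycs in each. Slc25a31, the ADP/ATP carrier of male germ cells, was at 159 RPKM (152 to 166) and 166 RPKM (158 to 174).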
